A study of Mus musculus with 8 samples.

Results

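The change in RNA between day 0 and day 5 of adipogenic induction was described in 1 knockdown line, shMLL1, with 1 RNA sequencing library on each day. A gene was taken when its RPKM (reads scaled to the length of the transcript and to the mapped reads of the library) exceeded 1 in at least 1 of these 2 libraries, which kept 10980 of 41325 gene symbols. The change is the log2 ratio of day 5 to day 0 after adding 0.1 to each RPKM, and a gene is said to have risen or fallen when that value passed 1 in either direction, a 2-fold change. There is no replicate of either library, so no p-value is given, and each comparison is between single libraries rather than between conditions.

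The study followed C3H10T1/2 cells, a mouse mesenchymal stem cell line that can become fat cells, in 4 lines sampled on both days, 8 libraries in all. The knockdown lines carried a short hairpin RNA in the pLKO.1 vector and came from puromycin-resistant isolated clones: shMLL1 against MLL1, shKDM4D against KDM4D and shNFIB against NFIB. The control is labelled shControl and its genotype WT, and whether it carries a vector or is a clone is not given in the sources used here. Day 0 was the post-confluent culture, and day 5 followed the usual adipogenic cocktail (insulin, dexamethasone and the phosphodiesterase inhibitor IBMX), then insulin, then medium with serum. Which clone of shMLL1 was sequenced is not given in the sources used here, so a property of 1 clone and an effect of the hairpin cannot be told apart.

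The shMLL1 libraries were the deepest of the series, at about 38200000 mapped reads on day 0 and 38100000 on day 5, against 15800000 to 26600000 in the other 6. Whole reads per gene were recovered from the RPKM steps, and the intervals given are exact 95% intervals of the plain RPKM ratio from those reads, which cover counting error only. Kmt2a, the gene of MLL1, stood at an RPKM of 2.00 on day 0 and 1.63 on day 5 in shMLL1, against 5.17 and 5.27 in shControl. Its level was thus lower than in shControl on both days, and within shMLL1 its log2 change was -0.28 (interval of the ratio -0.42 to -0.18).

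MLL1 is a methyltransferase that places methyl groups on lysine 4 of histone H3 at the promoters and enhancers of active genes. When a preadipocyte differentiates, cell division stops, Cebpb and the glucocorticoid receptor act early, Pparg and Cebpa then switch on the lipid genes, and the matrix around the cell is rebuilt. Interferon signalling is a separate programme: type I interferons, or nucleic acids sensed in the cytoplasm, activate transcription factors that include STAT2 and IRF9, which bind a short promoter element, the interferon-stimulated response element, and switch on antiviral and antigen presentation genes.

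Of the 10980 genes, 1998 rose (18.2%), 719 fell (6.55%) and 8263 did neither, and the median log2 change was 0.15. Over the same 10980 genes, 10.8% rose and 7.94% fell in shControl, 10.3% rose and 7.65% fell in shKDM4D, and 10.1% rose and 4.37% fell in shNFIB. When each line was instead given its own filter on expression, 1302 genes rose and 863 fell in shControl, 1147 and 819 in shKDM4D, and 1096 and 486 in shNFIB, still fewer rises than in shMLL1. Most rises were small: 1235 of 1998 (61.8%) lay between log2 values of 1 and 2, 375 between 2 and 3, 263 between 3 and 5, and 125 above 5. The falls were smaller still, with 623 between 1 and 2, 27 between 3 and 5, and 0 above 5. The exact interval of the ratio lay wholly above 2-fold for 1616 of the 1991 rises with recovered reads, and wholly below it for 574 of 716 falls.

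The split between rises and falls depended on how the libraries were put on a common scale. With the values as deposited, 73.5% of the changed genes in shMLL1 had risen, against 60.1% in shControl, 58.3% in shKDM4D and 69.3% in shNFIB. Reads on a pair of ribosomal RNA-like genes took 10.6% of the shMLL1 library on day 0 and 3.16% on day 5, and 10.5% and 3.24% in shControl; removing them from the totals left 1742 rises and 936 falls in shMLL1 (65.0% rises). Median-of-ratios scaling gave 1605 rises and 1032 falls (60.9%), and quantile normalisation gave 1238 and 1271 (49.3%), against 1070 and 1071 in shControl. The median of all genes moved with the scaling, from 0.15 as deposited to 0.04, -0.02 and -0.12. Large rises depended on it less: rises above 8-fold numbered 388 as deposited, 372 without the ribosomal RNA-like genes, 355 with median-of-ratios scaling and 288 after quantile normalisation, where shControl had 227 and, after quantile normalisation, 196.

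**Figure D1:**
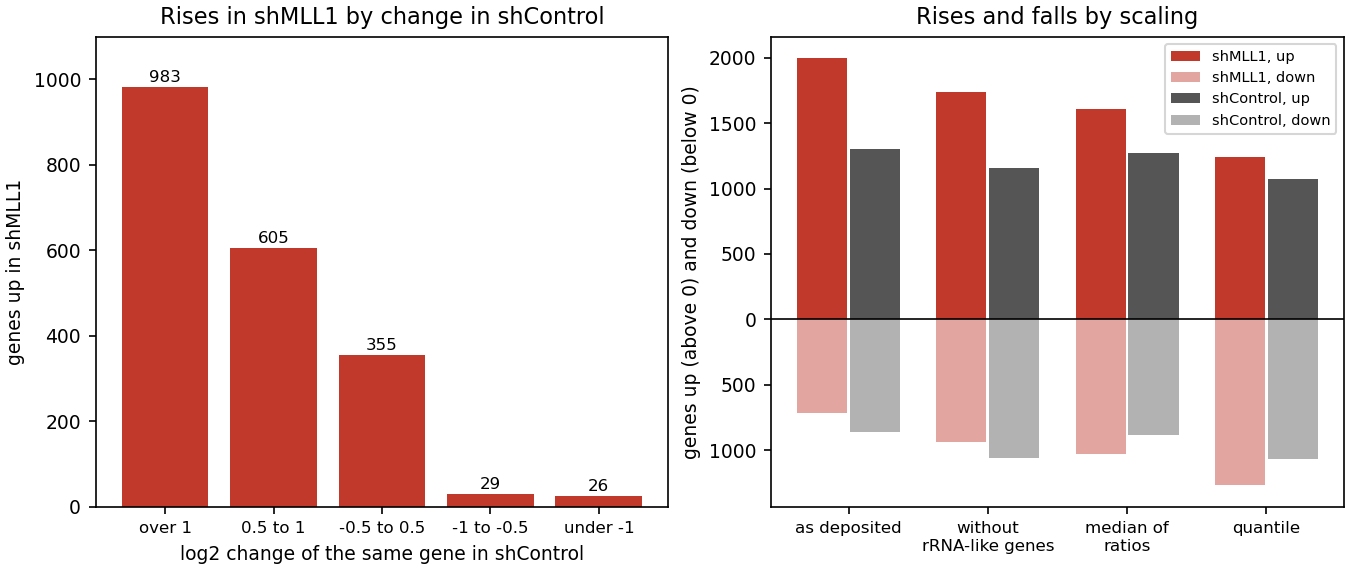
Left, the 1998 genes that rose in shMLL1, counted by their log2 change in shControl (983 above 1, 605 between 0.5 and 1, 410 below 0.5). Right, counts of genes up and down by more than 2-fold in shMLL1 and shControl under 4 scalings; the bars for rises and falls in shMLL1 are far apart as deposited (1998 and 719) and level after quantile normalisation (1238 and 1271).

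The share of genes that rose was 15.6% at a day 0 RPKM of 1 to 10 and 6.22% above 10. Of the 1998, 158 had a day 0 RPKM of at most 0.1, 659 lay between 0.1 and 1, 936 between 1 and 10 and 245 above 10. The filter fixes part of the counts up to 1, since such a gene was kept only when it exceeded 1 on day 5. In all, 817 of the rises entered that way, from 1046 such genes. Among the 9717 genes above 1 in both libraries, 1181 rose (12.2%) and 586 fell (6.03%). There were 30 rises without a single read on day 0. Rises were protein coding genes in 1859 cases (93.0%), and also included 55 of the 140 long intergenic noncoding RNAs and 37 of the 90 antisense genes that were kept. The counting setting for strand is not given in the sources used here, so antisense genes and the genes they overlap cannot be told apart. The share of kept genes that rose ranged over the chromosomes from 13.5% on chromosome 5 to 21.6% on chromosome 13. By reads, the genes that rose grew from 5.03% to 20.5% of the shMLL1 library, and those that fell shrank from 19.7% to 6.72%.

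About as many of the rises were shared with shControl as not. In shControl, 983 of the 1998 (49.2%) also rose, which is 82.8% of the 1187 genes that rose there, 605 lay between 0.5 and 1, and 410 (20.5%) were below 0.5. Among the 983 shared rises, the log2 change was larger in shMLL1 for 717. Of the 388 rises above 8-fold, 301 (77.6%) also rose in shControl and 47 were below 0.5 there. In shNFIB 1002 of the 1998 rose as well (90.6% of its 1106), and in shKDM4D 960 (85.3% of its 1126). By number of other lines in which a gene also rose, 600 rose in all 3, 354 in 2, 437 in 1 and 607 in none. All these are ratios against each line's own day 0 library, and none of the differences between lines was tested.

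**Figure D2:**
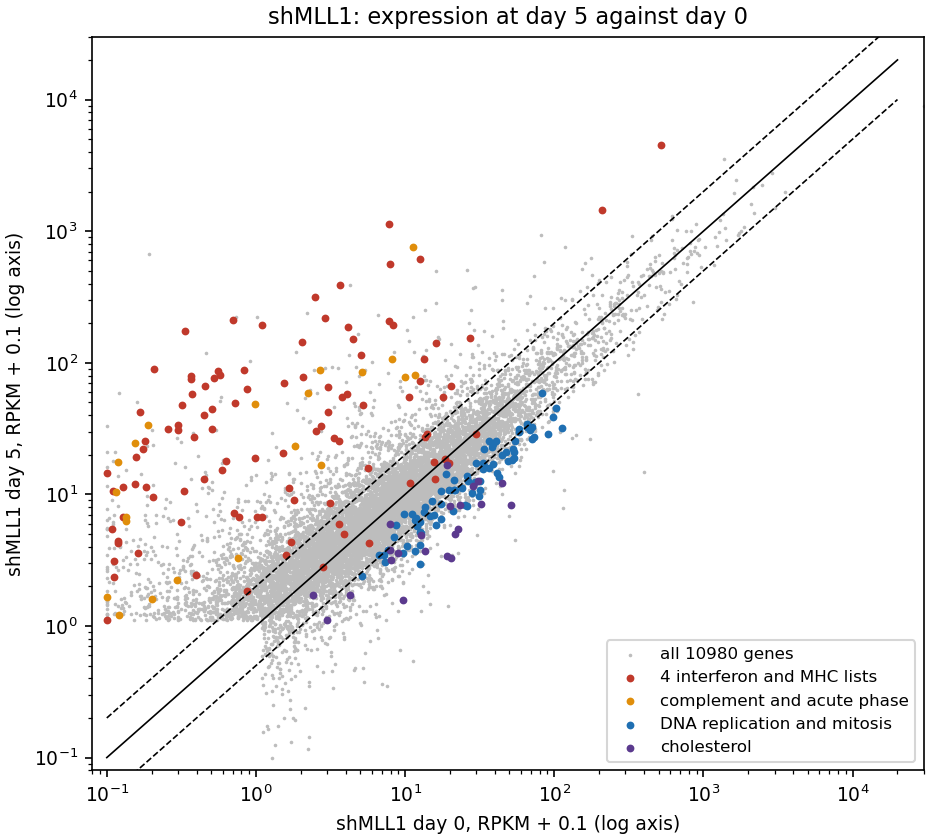
RPKM of each of the 10980 genes in shMLL1 on day 0 (horizontal) and day 5 (vertical), both on log axes. All genes are grey. The interferon and MHC, complement and acute-phase, DNA replication and mitosis, and cholesterol lists are coloured. Most of the interferon and MHC genes lie above the diagonal, such as Ifit3 (7.68 and 1133), while Tyk2 (2.70 and 2.69) and Ifi27 (19.7 and 17.3) lie near it.

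**Figure D3:**
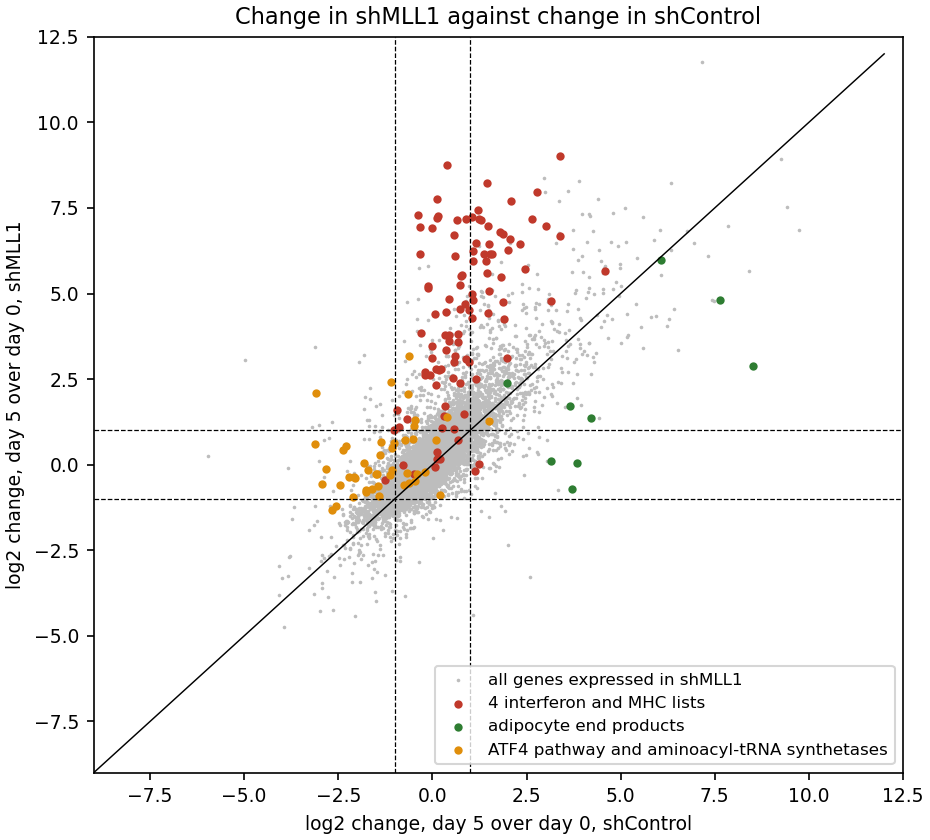
Log2 change from day 0 to day 5 in shControl (horizontal) against shMLL1 (vertical) for the same genes. Adipocyte genes such as Fabp4 (2.88 in shMLL1, 8.51 in shControl) lie below the diagonal and interferon genes such as Tgtp2 (8.75 and 0.38) far above it.

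The genes with the largest rises belonged in good part to the interferon response. Of the 125 rises above 32-fold, 47 (37.6%) were in the 4 lists of antiviral effectors, sensors and signalling factors, interferon-inducible GTPases, and MHC class I with antigen processing; of the 388 above 8-fold it was 73 (18.8%), and of all 1998 it was 93. The reads of these 4 lists grew from 0.217% to 2.67% of the library in shMLL1, from 0.261% to 1.2% in shNFIB, from 0.304% to 0.504% in shControl and from 0.269% to 0.449% in shKDM4D. The 4 lists kept only 39, 27, 18 and 19 of the 10980 genes. They thus held many of the largest rises, and their share of all 1998 (4.65%) was limited by their size.

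The promoters of these genes are shown because the response element can be read in them. RefSeq sequence of build GRCm38.p6, from 250 bases to 1 base before the annotated start of transcription and on the gene's own strand, was searched for the core of the element, GAAANNGAA, on either strand, and matches are in capitals. The genes are examples from these lists that had a match in the bases shown and rose by more than 2-fold in shMLL1. They were not chosen by abundance alone. Not every gene of the lists was considered, so a more abundant gene with a match may be missing. Ifit3 (chr19:34583279-34583528) has 3 matches, starting 155, 121 and 102 bases before the start site; Stat2 (chr10:128270248-128270497) has 1 at 221; Gbp3 (chr3:142559794-142560043) has 2 that overlap, at 44 and 38; Tgtp2 (chr11:49064213-49064462) has 1 at 70; and B2m (chr2:122147437-122147686) has 1 at 139.
Ifit3: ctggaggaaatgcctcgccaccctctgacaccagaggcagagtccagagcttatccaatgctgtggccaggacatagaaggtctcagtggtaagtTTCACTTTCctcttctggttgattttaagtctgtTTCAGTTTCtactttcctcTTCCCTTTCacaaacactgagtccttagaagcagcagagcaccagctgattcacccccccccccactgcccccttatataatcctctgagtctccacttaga
Stat2: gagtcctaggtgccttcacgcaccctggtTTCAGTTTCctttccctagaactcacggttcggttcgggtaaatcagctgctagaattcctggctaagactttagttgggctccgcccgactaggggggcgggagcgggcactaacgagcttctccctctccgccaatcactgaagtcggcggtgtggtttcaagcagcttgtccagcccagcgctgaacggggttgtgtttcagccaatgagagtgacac
Gbp3: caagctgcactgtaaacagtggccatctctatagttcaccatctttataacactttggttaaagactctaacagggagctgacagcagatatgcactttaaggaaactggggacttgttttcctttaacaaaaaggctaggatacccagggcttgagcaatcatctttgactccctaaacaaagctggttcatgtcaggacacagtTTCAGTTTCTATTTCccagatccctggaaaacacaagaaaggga
Tgtp2: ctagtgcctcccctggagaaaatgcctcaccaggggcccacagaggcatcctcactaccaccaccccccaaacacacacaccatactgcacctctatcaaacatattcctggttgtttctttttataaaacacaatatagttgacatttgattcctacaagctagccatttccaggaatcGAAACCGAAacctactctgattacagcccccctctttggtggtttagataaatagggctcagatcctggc
B2m: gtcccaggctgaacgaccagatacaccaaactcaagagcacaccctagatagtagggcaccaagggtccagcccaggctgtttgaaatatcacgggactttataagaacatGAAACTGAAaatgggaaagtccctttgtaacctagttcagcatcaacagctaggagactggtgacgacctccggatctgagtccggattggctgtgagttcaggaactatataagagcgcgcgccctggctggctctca

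Over windows that also held the first 50 bases of the transcript, 9.76% of the 27025 genes with a promoter in the table had such a match and 8.80% of the genes kept here. Among the rises it was 215 of 1504 (14.3%), among rises above 8-fold 83 of 245 (33.9%), and among falls 39 of 560 (6.96%). By list, 19 of 29 antiviral effectors, 6 of 21 sensors and signalling factors, 9 of 10 GTPases and 5 of 16 MHC genes had one. A match is a run of letters and not a measured binding site.

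Antiviral effectors, the proteins that block viral RNA or its translation, rose almost as a whole. Of 39 kept, 38 rose and none fell, with a median log2 change of 5.54, against 12 up and 1 down with a median of 0.59 in shControl, and 33 up with a median of 3.35 in shNFIB. The filter kept a gene below 1 on day 0 only when it exceeded 1 on day 5. This fixes part of the rises in this list and the following lists. Counts for the other lines are over the same genes, kept by their shMLL1 values. Ifit3, an inhibitor of viral replication, went from an RPKM of 7.68 to 1133 in shMLL1, a log2 change of 7.19 (interval of the ratio 7.08 to 7.33), and from 26.0 to 48.5 in shControl. Isg15, a ubiquitin-like protein, went from 1.00 to 192 in shMLL1 and from 1.54 to 3.70 in shControl. Usp18, the protease that removes Isg15 from its targets, went from 0.357 to 66.7 in shMLL1 and from 1.01 to 1.11 in shControl. In these 3 genes the shMLL1 library was the lower of the pair on day 0 and far the higher on day 5.

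Several effectors were close to silent in shControl on both days. Ifi44 stood at 0.269 and 79.8 in shMLL1 and at 0.576 and 0.633 in shControl. Oas2, which makes the second messenger that activates RNase L, stood at 0.159 and 31.1 against 0.270 and 0.267. Ifi206, a gene of the DNA-binding p200 family that is in none of the lists, had no read on day 0 and an RPKM of 33.2 on day 5, at least 1291-fold higher than the limit of 3 reads, and 0 and 0.678 in shControl. Ifitm3, which keeps viruses from leaving endosomes, was already abundant, at 209 on day 0 and 1451 on day 5, against 269 and 286. The exception in the list was Ifi27, at 19.7 and 17.3 in shMLL1 (log2 change -0.19) and 31.5 and 69.7 in shControl. Because Oas1a, Oas1b and Oas1g, like Ifit3 and Ifit3b, are near copies, their reads may have been shared out arbitrarily; summed, the Oas1 genes rose by 6.46 and the Ifit3 pair by 7.15, against -0.18 and 1.03 in shControl.

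Sensors of foreign nucleic acid and the factors that carry the interferon signal divided into genes that rose and genes that did not. Of 27 kept, 18 rose and none fell (median 2.61; in shControl 4 up, 1 down, median 0.43; in shNFIB 13 up, median 0.94). Irf7, the transcription factor that amplifies type I interferon production, went from 0.471 to 80.6 in shMLL1 and from 1.16 to 1.89 in shControl. Zbp1, a sensor of Z-form nucleic acid, went from 0.274 to 57.3, against 0.606 and 0.689. Dhx58 and Ifih1, both sensors of double-stranded RNA, went from 0.200 to 33.3 and from 0.231 to 10.5.

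Stat2 and Irf9, which act together at the response element, rose by smaller amounts from higher levels. Stat2 went from 2.96 to 41.8 and Irf9 from 2.62 to 33.0 in shMLL1, against 5.13 to 6.54 and 5.85 to 7.91 in shControl. Receptor and kinase genes moved little: Ifnar1 stood at 10.8 and 12.1, Ifngr1 at 18.3 and 18.5 and the kinase gene Tyk2 at 2.70 and 2.69, while Ifnar2, at 14 and 28.8, was just past 2-fold. Transcripts of the interferons themselves were almost absent: of 21 interferon genes listed, 17 had no read in either shMLL1 library and all 21 had 3 reads or fewer in each. In these bulk libraries more cells expressing a gene and more RNA per cell cannot be told apart, here and in all that follows.

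Interferon-inducible GTPases, which attack the vacuoles of intracellular pathogens, rose in every case, 18 of 18, with a median of 6.30 against 1.67 in shControl, where 14 rose, and 3.54 in shNFIB, where 16 rose. Tgtp2 went from 0.107 to 89.0 in shMLL1 and from 0.818 to 1.09 in shControl. Its near copy Tgtp1 went from 0.457 to 86.6 and from 1.77 to 1.32, and the sum of the pair rose by 8.05 in shMLL1 and changed by -0.09 in shControl. Iigp1 rose in both lines, from 0.235 to 175 in shMLL1 and from 0.95 to 10.9 in shControl. Irgm1 went from 3.69 to 54.7, against 8.24 and 6.65. Gbp3 went from 1.93 to 143, against 3.38 and 8.84. The GTPase genes thus differed among themselves in shControl, where Tgtp1 and Irgm1 were slightly lower on day 5 and Iigp1 and Gbp3 higher, while all rose in shMLL1.

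MHC class I and antigen processing genes, which cut proteins into peptides and show them on the cell surface, rose in 19 of 19 cases (median 4.29; shControl 11 up, median 1.15; shNFIB 18 up, median 2.29). B2m, the light chain of class I, was abundant on both days, at 523 on day 0 and 4475 on day 5 in shMLL1 and at 700 and 1291 in shControl. Psmb8, a subunit of the immunoproteasome, had 1 read on day 0 (0.00957) and an RPKM of 10.5 on day 5, a log2 ratio with an interval from 7.92 to 15.71. The peptide transporter genes Tap1 and Tap2 went from 0.287 to 27.2 and from 0.201 to 30.6, against 0.665 to 2.20 and 0.784 to 9.19 in shControl. The smallest rises of the list were Tapbpl, from 1.5 to 3.33, and Erap1, from 3.06 to 8.46. H2 genes share sequence, so values of single H2 genes are uncertain.

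On day 0 these lists were lower in shMLL1 than in shControl, by a median log2 difference of -0.61 for effectors, -0.46 for sensors and signalling factors, -1.37 for GTPases and -0.50 for MHC genes. On day 5 they were higher by 4.20, 1.69, 3.15 and 2.58. Set against shControl, part of the ratio to day 0 came from a lower start, and the larger part from a higher level on day 5. The lower start was not particular to shMLL1. Together these lists took 0.261% of the day 0 reads in shNFIB and 0.269% in shKDM4D, against 0.304% in shControl and 0.217% in shMLL1. Markers of blood cells were nearly absent: of 14 macrophage and leukocyte markers 2 were kept, Cd68 at 0.521 and 1.40 and Cd14 at 6.94 and 8.24, and no endothelial, epithelial or skeletal muscle marker was kept.

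**Figure D4:**
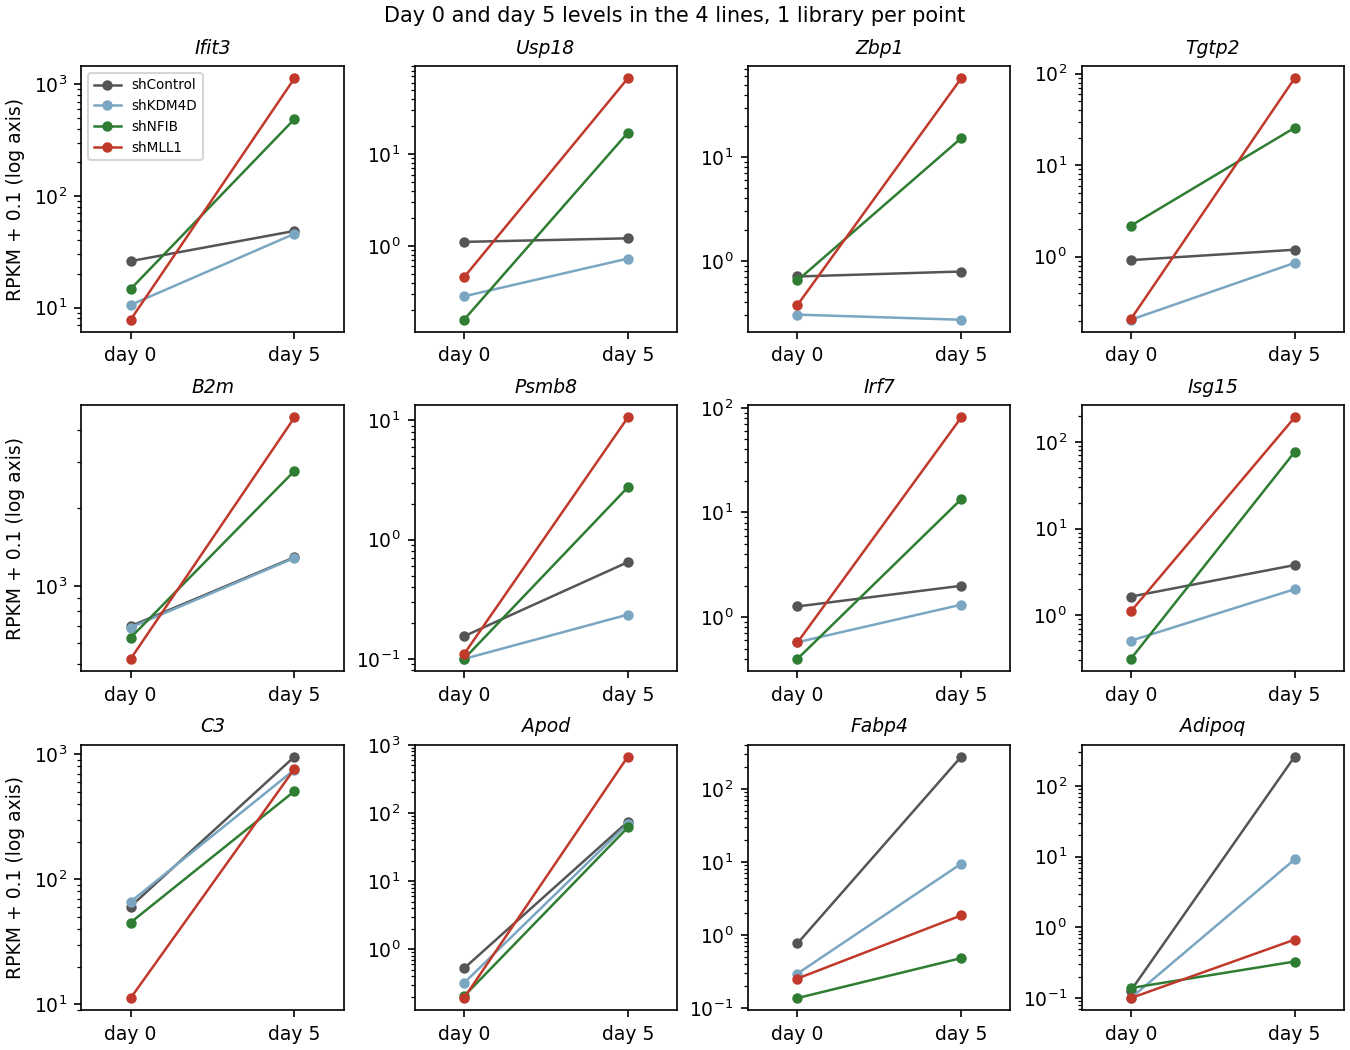
RPKM (log axis) on day 0 and day 5 of 12 genes in shMLL1 and the other 3 lines, 1 point per library. Interferon genes such as Ifit3 (1133 on day 5) and Isg15 (192) stand highest in shMLL1 on day 5, Apod (670) likewise, and Fabp4 (1.75) and Adipoq (0.570) stay far below shControl.

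Complement and acute-phase proteins, secreted proteins of innate immunity, rose in 21 of 21 cases, and in shControl 18 of 21 rose, so this group was common to both lines. The median was 4.05 in shMLL1 and 2.75 in shControl. C3, the central complement protein and a known product of fat cells, went from 11.1 to 764 in shMLL1 and from 60.5 to 956 in shControl: the larger ratio in shMLL1 came from the lower start. C4b went from 0.0184 to 17.6, against 0.119 to 10.5, and Cfb, which drives the alternative pathway, from 0.0556 to 24.6, against 0.120 to 3.33. For the whole list the median log2 difference between shMLL1 and shControl was -1.24 on day 0 and 0.13 on day 5.

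Chemokines and cytokines were mixed. Of 17 kept, 10 rose and none fell (median 1.29; shControl 6 up and 1 down, median 0.92). Ccl5, a chemokine for T cells, went from 1.53 to 49.0 in shMLL1 and from 0.978 to 1.94 in shControl, and Cxcl10, an interferon-inducible chemokine, from 0.139 to 6.76 against 0.267 and 0.184. Il1rn, the antagonist of the interleukin 1 receptor, rose in both, from 2.09 to 237 and from 58.5 to 602. Cxcl5 stood at 31.6 and 30.7, and Csf1 at 39.8 and 45.8.

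The single largest log2 change among the better expressed genes was that of Apod, the lipid-binding apolipoprotein D. It went from 0.0914 to 670 in shMLL1, a log2 change of 11.77 with 9 reads on day 0 and 65794 on day 5, and from 0.422 to 74.1 in shControl. Fam107a, an actin-associated protein, was high in both lines on day 5, at 58.9 from 0.0203 in shMLL1 and 102 from 0.0679 in shControl. Plac8 went from 0.362 to 118 against 0.0943 to 2.24, and Clec3b, the plasminogen-binding tetranectin, from 0.924 to 224 against 10.8 to 230. Ly6a, the stem cell antigen Sca-1, which is also interferon-inducible, went from 81.5 to 927 in shMLL1 and from 172 to 136 in shControl.

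By gain in RPKM the order was different, and abundant housekeeping products appeared beside the interferon genes. Fth1, the heavy chain of ferritin, went from 1372 to 3505 in shMLL1 and from 1582 to 3996 in shControl, nearly the same log2 change (1.35 and 1.34). Calr, a chaperone of the endoplasmic reticulum, went from 613 to 1296 and Ubb, a ubiquitin gene, from 612 to 1234, both just past 2-fold. In shControl Calr went from 714 to 1192 and Ubb from 636 to 880. The log2 interval of the Ubb ratio in shMLL1, 0.99 to 1.03, spans the 2-fold line.

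Among matrix genes, the small leucine-rich proteoglycans, which bind collagen fibrils, rose in 9 of 10 cases in each line, with a median of 3.87 in shMLL1 and 2.86 in shControl. Lum had no read on day 0 and an RPKM of 5.31 on day 5 in shMLL1, at least 166-fold higher, and 0.0767 and 5.47 in shControl. Aspn went from 6.45 to 229 against 64.9 to 454, and Dcn from 3.13 to 92.2 against 3.72 to 31.8, while Bgn, at 446 and 857, fell just short of the threshold. Of 30 collagens and elastic matrix genes 13 rose and 1 fell (shControl 10 and 2), among them Col15a1, from 0.437 to 30.9, and Postn, from 11.2 to 221, whereas Col1a1, the main chain of collagen I, stood at 530 and 569. Col3a1 went from 118 to 763. Of 20 matrix proteases and inhibitors 12 rose and 3 fell (shControl 9 and 3), for example Adamts1 from 13.6 to 126.

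Genes known to answer to glucocorticoids, which the cocktail contains as dexamethasone, rose in 13 of 16 cases in shMLL1 and 15 of 16 in shControl, with medians of 1.90 and 1.82. Tsc22d3, a direct target of the receptor, went from 3.35 to 26.8 and from 5.22 to 16.2. Lcn2 went from 0.878 to 48.4 and from 2.68 to 44.3. Angptl4 and Sgk1 did not rise in shMLL1, at 1.82 and 2.56 and at 13.0 and 7.54.

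Lysosomal genes rose in more cases in shMLL1 than in shControl, 18 of 28 against 4 of 28, with medians of 1.15 and 0.52, and 27 of the 28 had the larger change in shMLL1; in shNFIB 8 rose. Gaa, which degrades glycogen, went from 13.7 to 59.0 in shMLL1 and from 34.9 to 56.2 in shControl, and Npc2, which carries cholesterol, from 22.3 to 93.5 and from 35.9 to 82.4. As with C3, the day 5 levels were near each other and the day 0 levels differed. Tfeb, a regulator of lysosomal genes, stood at 1.77 and 1.85.

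**Figure D5:**
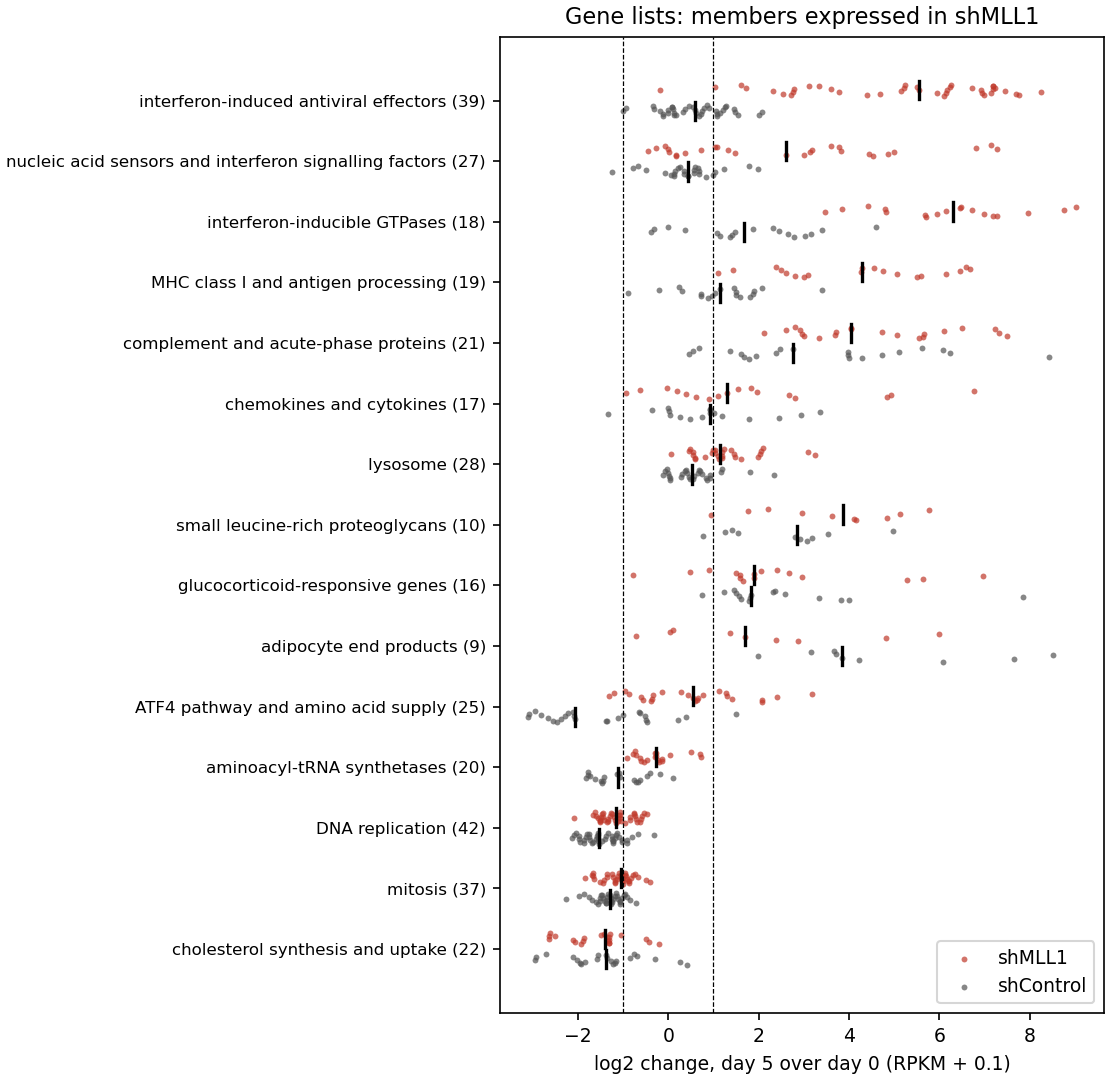
Log2 change from day 0 to day 5 of the kept members of chosen gene lists in shMLL1 and shControl. Each point is a gene, bars mark medians, and the number of kept members stands beside each list name. The medians of the GTPases (6.30) and antiviral effectors (5.54) lie farthest to the right in shMLL1, and the ATF4 list has medians of opposite sign in the 2 lines (0.56 and -2.05).

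Genes of the ATF4 pathway, which cells use under amino acid shortage or stress of the endoplasmic reticulum, fell for the most part in shControl and mostly stayed within 2-fold in shMLL1. Of 25 kept, 8 rose and 2 fell in shMLL1 (median 0.56), and 1 rose and 17 fell in shControl (median -2.05); in shNFIB 7 rose and none fell. Ddit3, the pro-apoptotic factor CHOP, went from 27.7 to 253 in shMLL1 and from 88.5 to 57.6 in shControl (the files list it as Ddit3_1). Trib3, a pseudokinase that restrains ATF4, went from 4.0 to 17.3 and from 27.9 to 3.21. Atf3 went from 0.523 to 3.20 and from 2.75 to 1.22. Atf4 itself stood at 104 and 126 in shMLL1 and fell from 187 to 71.9 in shControl, and Slc7a5, a carrier of large amino acids, stood at 27.2 and 24.7 against 64.1 and 9.03. For Trib3, Atf3 and Ddit3 the day 0 level was lower and the day 5 level higher than in shControl. None of the 20 aminoacyl-tRNA synthetases kept passed 2-fold in shMLL1 (median -0.28), and 12 fell in shControl (median -1.10). Of 20 chaperone genes of the endoplasmic reticulum 3 rose (shControl 2), including Hspa5, from 118 to 301. A match to TGATGNAA, the core of the element that ATF4 binds, lay in 8 of 21 promoters of the ATF4 list and in 4.51% of all genes. It also lay in 5 of 12 promoters of the synthetases, which did not pass 2-fold, in 2.48% of kept genes and in 3.46% of rises.

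End products of the fat cell programme rose less than in shControl in all 3 knockdown lines, shMLL1 among them. Adipoq, the hormone adiponectin, was below an RPKM of 1 on both days, listed at 0 on day 0 and at 0.570 on day 5 with 30 reads, and was not kept, whereas shControl went from 0.0272 to 258. Fabp4, the fatty acid carrier of adipocytes, went from 0.152 to 1.75 in shMLL1 and from 0.661 to 277 in shControl. Of 24 adipocyte end products only 9 were kept, 6 of them rose (median 1.71), as did 6 in shKDM4D (median 1.91) and 6 in shNFIB (median 1.46), and all 9 rose in shControl (median 3.85), where 8 had a larger change than in shMLL1. Hp, haptoglobin, went from 0.114 to 5.96 against 1.43 to 304, and Pnpla2, the lipase that starts fat breakdown, stood at 8.66 and 8.91 against 7.50 and 109. G0s2, which inhibits that lipase, rose in both, from no read to 6.23 (at least 69.1-fold) and from 0.388 to 32.8.

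The factors that drive the programme moved more alike. Of 18 adipogenic transcription factors 8 rose and 1 fell in shMLL1 (median 0.79), against 9 and 2 in shControl (median 1.06). Pparg went from 3.34 to 7.22 in shMLL1 and from 8.20 to 21.7 in shControl, and Cebpa from 0.596 to 2.42 and from 2.05 to 14, so that both rose but ended lower. The rise of Pparg in shMLL1 was just past 2-fold, with a log2 change of 1.09. The interval of its ratio, 0.93 to 1.29, spans the 2-fold line. Cebpb stood at 32 and 48.7 against 38.3 and 49.3. Klf15 went from 0.00938, 1 read, to 2.84, against 0.296 to 1.52, and Ebf1 from 1.56 to 11.2. Klf5, an early factor, fell from 3.31 to 0.414. Of 15 genes of fatty acid and triglyceride synthesis 1 rose, Lpin1, from 2.04 to 4.47, while Fasn and Scd1 were lower on day 5 without passing 2-fold, at 23.3 and 12.9 and at 22.4 and 13.4; in shControl Scd1 went from 27.0 to 272.

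The lists with the most falls were those of division and of sterol synthesis. Of 42 DNA replication genes 29 fell and none rose (median -1.16; shControl 37 fell, median -1.54), and of 37 mitosis genes 22 fell (median -1.04; shControl 32). Cdc6, which loads the replicative helicase, went from 12.4 to 4.03, Gins1 from 12.4 to 2.87 and Mki67, the proliferation antigen, from 113 to 31.6, while Top2a, at 82.6 and 58.9, did not pass 2-fold. Mcm6, a helicase subunit, went from 69.2 to 31.0, and its promoter (chr1:128359706-128359955, opposite strand) is shown because it holds the sequence TTTGGCGC bound by E2F factors, 110 and 47 bases before the start site.
Mcm6: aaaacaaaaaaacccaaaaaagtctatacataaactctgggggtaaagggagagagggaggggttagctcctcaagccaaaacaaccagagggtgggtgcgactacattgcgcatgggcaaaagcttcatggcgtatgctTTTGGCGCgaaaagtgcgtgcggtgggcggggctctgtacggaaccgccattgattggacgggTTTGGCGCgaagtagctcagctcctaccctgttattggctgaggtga

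The search for TTTCCCGC or TTTGGCGC on either strand found a match in 44 of 560 falls (7.86%), 3.62% of kept genes and 1.26% of rises, against 1.80% of all genes, and in 11 of 33 replication genes. Of 22 genes of cholesterol synthesis and uptake 19 fell in shMLL1, 16 in shControl and none in shNFIB (medians -1.40, -1.37 and -0.47). Idi1, an isomerase of the isoprenoid steps, went from 50.9 to 8.13 in shMLL1 and from 43.1 to 11.9 in shControl, and Msmo1, a sterol oxidase of the later steps, from 19.1 to 3.29 and from 16.2 to 4.13. The largest single falls were of other genes, first of all Prl2c2, a placental prolactin-like growth factor, which went from 397 to 14.8; its near copy Prl2c3 fell too, and the sum of the pair changed by -4.74 in shMLL1 and -3.95 in shControl. Grem1, an antagonist of bone morphogenetic proteins, fell from 114 to 7.80 and Col2a1, the collagen of cartilage, from 6.87 to 0.264. Of the 719 falls, 476 also fell in shControl.

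Other lists moved little, in both directions or upward alone, and their counts stand beside the 18.2% of all kept genes that rose and the 6.55% that fell. None of the 45 nuclear genes of the respiratory chain kept passed 2-fold (median 0.13), and none of the 19 MLL/SET1 complex subunits rose, while Setd1a (11.7 to 4.04) and Hcfc1 (22.2 to 9.59) fell. Of 25 glycolysis and hypoxia genes 11 rose and none fell, led by Ndrg1 (5.69 to 59.9), and 9 rose and none fell in shControl. Of 21 detoxification genes 10 rose and 2 fell (shControl 8 and 1). Of 11 retinoid genes 6 rose and 1 fell (shControl 5 and 1), led by Aldh1a1, which makes retinoic acid (0.101 to 30.6). Of 16 insulin and IGF genes 7 rose and 1 fell, among them Igf1 (0.0978 to 3.14). Of 13 Wnt genes 6 rose and 2 fell, among them the inhibitor Sfrp2 (0.146 to 7.85) and the agonist Rspo2 (1.78 to 43.9, against 35.4 to 52.4 in shControl). Of 12 preadipocyte and stem cell markers 5 rose and 2 fell, of 22 fatty acid oxidation genes 5 rose, of 19 CDK inhibitors and p53 targets 4 rose, including Cdkn1a (18.8 to 40.7), and of 15 clock genes 3 rose. Rises and falls were 6 and 4 of 20 immediate early genes, 4 and 7 of 23 TGF-beta and BMP genes, 3 and 4 of 13 contractile genes, 2 and 2 of 14 YAP/TAZ genes, 1 and 1 of 6 bone genes and 1 and 1 of 3 brown fat genes. Of 12 Hox and Meis genes kept, a group with known MLL1 targets, 2 rose and none fell, near those shares: Meis3 (1.74 to 7.13) and Hoxa10 (0.809 to 2.54), while Hoxa5 stood at 3.40 and 3.16.

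Rises also lay side by side in the genome, in runs of neighbouring kept genes that were looked for after the values were seen, so they are a description. A run of 11 genes at chr1:173468485-174031810 begins with Ifi206 and had a median change of 4.05 in shMLL1 and 1.37 in shControl. A run of 9 on chromosome 11 from Irgm1 had 3.85 and -0.31, 6 genes on chromosome 5 from Oas2 had 5.85 and -0.06, and 8 on chromosome 19 from Ch25h to Ifit1 had 3.35 and 0.59. The longest runs held histone genes. A run of 17 histone genes on chromosome 13 had 2.37 and 0.66. Another of 13 genes on chromosome 3 from Hist2h2be mixed histone genes with others, such as Txnip and Polr3gl, and had 3.11 and 1.37. Of 50 histone cluster genes kept, 37 rose and 2 fell in shMLL1 (median 1.74), 26 rose and 3 fell in shNFIB, 17 and 14 in shKDM4D and 14 and 11 in shControl. Hist1h2bc went from 44.5 to 360 in shMLL1 and from 49.2 to 130 in shControl. Histone genes are near copies of each other, so values of single genes are uncertain.

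At the threshold itself, Scfd1 (4.38 to 8.86) and Eid2 (2.99 to 6.09) lay just inside it, and Fbxl20 (2.04 to 4.17) and Cryl1 (0.661 to 1.42) just outside.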

How the data were processed

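RNA was sequenced from 8 libraries, 1 for each of 4 lines on 2 days, and the labels name no batch. The authors mapped reads to GRCm38/mm10 with CLC Genomics Workbench and deposited 1 RPKM value per gene symbol and library. The methods also name quantile normalisation, which the deposited RPKM values do not show, so it was applied here as an alternative. Files were joined on gene symbol. Between 96.2% and 96.6% of the values checked in a library lay within 0.02 of a whole number of reads once the step of 1 read was found. The check covered 10759 to 13338 values a library, from symbols with 1 gene identifier and without zeros or the most abundant genes. The recovered reads gave the exact conditional (Clopper-Pearson) 95% intervals. PCR copies are not told apart, so the intervals cover counting error only. A gene without a read was set against a floor of 3 reads in that library.

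With 1 library a side no test was run; the filter was an RPKM over 1 and the pseudocount 0.1. Named genes were Kmt2a, Pparg, Cebpa, Cebpb, Fabp4 and Adipoq, the 15 largest rises with a day 5 RPKM of at least 5, the 10 largest gains in RPKM, the 10 largest rises under 0.5 in shControl, the 8 largest falls, and up to 4 of the largest and 2 of the smallest changes of each list. Stat2, Irf9, Ifnar1, Ifnar2, Gbp3, Mcm6 and Hist1h2bc were named after their values were seen. The genes, the 42 lists and the comparisons were chosen with earlier results of these data known. The annotation was matched for 40851 of 41325 symbols, and 52 of the kept genes had no match. Python 3.11.15, numpy 2.4.6, pandas 2.3.3, scipy 1.17.1 and matplotlib 3.10.9 were used, and the scripts were tested on simulated data. Results for some genes are not reported here.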

Additional observations from a re-analysis of the deposited data

Results flagged for a closer look

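Among the named genes, 5 went opposite ways in shMLL1 and shControl, each past 2-fold in its own direction and each with 1 library on each side; none of these differences was tested. Trib3, which restrains ATF4, had a log2 change of 2.08 in shMLL1 and -3.08 in shControl, and Atf3, a stress-induced factor, 2.41 and -1.11. Tnfrsf11b, the osteoprotegerin gene, had 1.73 and -1.49, and Slfn9, of the Schlafen family, 1.03 and -1.01. For Slfn9 the intervals of the ratio, 0.97 to 1.09 in shMLL1 and -1.14 to -0.90 in shControl, each span the 2-fold line. Rn7s1, a copy of the 7SL RNA gene, had -4.40 and 1.09, but the sum of Rn7s1 and its near copy Rn7s2 went from 21.1 to 41.2 in shMLL1, a log2 change of 0.96, against 0.63 in shControl, so the value of the single copy depends on how reads were shared between them.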

How the results depend on the processing

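No paired analysis was possible because each line has 1 library a day, and for the same reason no replicate could be left out. The genes up in shMLL1 numbered 1340 with a pseudocount of 1, 2093 without one, 1102 with an RPKM filter of 5, 3239 with no filter, 1238 after quantile normalisation, 1605 with median-of-ratios scaling, 1742 without the ribosomal RNA-like genes and 1858 among protein coding genes. The genes down in shMLL1 numbered 1271 after quantile normalisation. The median change in shMLL1 (log2), 0.15 as deposited, was 0.13 with a pseudocount of 1, 0.058 with the filter of 5, 0.18 with no filter and 0.035 without the ribosomal RNA-like genes, and it turned to -0.12 after quantile normalisation and -0.017 with median-of-ratios scaling. The 983 genes up in both shMLL1 and shControl numbered 619 with a pseudocount of 1, 554 with the filter of 5 and 1478 with no filter. The 410 genes up in shMLL1 and not in shControl, where their log2 change was under 0.5, numbered 210 with the filter of 5, 906 with no filter and 229 after quantile normalisation. Among the lists, small counts moved: Hox and Meis rises went from 2 to 1 with a pseudocount of 1 and after quantile normalisation, the 1 rise of fatty acid and triglyceride synthesis to 0 and the 2 YAP/TAZ rises to 1 under all 4 alternatives for lists, the 7 TGF-beta and BMP falls to 4 with a pseudocount of 1, the 3 clock rises to 0 with a pseudocount of 1, quantile normalisation and median-of-ratios scaling, and the 1 leukocyte marker to 0 with a pseudocount of 1 and quantile normalisation. Of 172 named genes past 2-fold, 159 were still past it after quantile normalisation, 159 with median-of-ratios scaling, 155 with a pseudocount of 1 and 161 relative to Gapdh, and none changed sign. The cause of these shifts was not tested beyond what each setting does by construction.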
